A study of Arabidopsis thaliana with 24 samples.

Results

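The RD29, COR15, KIN and COR413 genes of Arabidopsis thaliana, 9 genes that classical work named for their response to cold, drying or abscisic acid (ABA), were followed in roots and shoots under osmotic shock. They were taken by locus code from the 14557 genes of the authors' deposited table, and all 9 were present. They are RD29A (AT5G52310), RD29B (AT5G52300), COR15A (AT2G42540), COR15B (AT2G42530), KIN1 (AT5G15960), KIN2 (AT5G15970), COR413PM1 (AT2G15970), COR413IM1 (AT1G29395) and COR413IM2 (AT1G29390). The seedlings, 7 d old, belong to a line that the labels call ulox or µlox and do not define. The growth notes also name plants of the ecotype Columbia-0, but each of the 24 libraries is labelled ulox, so the groups share that genotype. Seedlings were held for 1 h in water, or for 1, 2 or 3 h in 30% (w/v) polyethylene glycol (PEG, average molecular weight 8000), a polymer that lowers the water potential of the solution (here -2.0 MPa) without entering cells. Shoots and roots of 30 to 50 seedlings were pooled per replicate, which gives 8 groups of 3 libraries lettered A, B and C, all made by MARS-seq, a method that tags the 3′ ends of transcripts.

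All 3 PEG times of a tissue are set against the same 3 water libraries. Since water was sampled at 1 h only, PEG and the time spent in liquid cannot be told apart at 2 and 3 h. Library totals ran from 1203312 to 6090852 counts in shoot and from 1597302 to 7029587 in root. The tissue labels were checked against markers: 4 photosynthesis genes (RBCS1A, CAB3, RCA and PSBO1) summed to between 57687 and 80507 CPM (counts scaled by library size) in the 12 shoot libraries and to between 223 and 747 in the 12 root libraries. In turn 3 root genes (CASP1, MYB36 and COBL9) summed to 216 to 651 CPM in root and 2.87 to 10.5 CPM in shoot.

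As background, plants that lose water or cool down switch on genes for small hydrophilic proteins that are thought to protect membranes and other proteins. A pair of promoter elements are the textbook switches of these genes. The dehydration-responsive element, also called C-repeat (DRE/CRT, core CCGAC), is bound by the CBF/DREB1 factors, which cold induces, and by DREB2 factors, which drying and heat induce. The ABA-responsive element (ABRE, core ACGTG) is bound by the AREB/ABF factors downstream of ABA. RD29A and RD29B are the standard reporters of the DRE and the ABRE routes. COR15A and COR15B proteins enter the chloroplast stroma and protect its membranes during freezing. KIN1 and KIN2 encode very small proteins once compared with fish antifreeze proteins. The COR413 proteins span membranes, COR413PM1 that of the cell surface and COR413IM1 and COR413IM2 the inner envelope of the chloroplast.

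Of the 9 genes, 8 lie as 4 tandem pairs of the same strand, with 0 annotated genes between the partners, in the RefSeq annotation of TAIR10.1. RD29B and RD29A (chromosome 5) are 1185 bases apart and their coding sequences share 60.1% of aligned positions. COR15A and COR15B (chromosome 2) are 7 bases apart and 82.6% alike, COR413IM1 and COR413IM2 (chromosome 1) are 25 bases apart and 86.8% alike, and KIN1 and KIN2 (chromosome 5) are 892 bases apart and 95% alike. COR413PM1 stands alone on chromosome 2. In the last 500 bases of the transcripts, the part that 3′ tags come from, no 50-base stretch of 7 of the genes occurs a second time in the genome. KIN1 and KIN2 have 1 such stretch of 451 each, and 10 stretches of KIN2 occur in the spliced transcript of KIN1, so KIN1 and KIN2 counts are less certain than those of the others. COR15B overlaps AT2G42520 and COR413IM2 overlaps AT1G29380 on the other strand. Whether the authors counted by strand is not given in the sources used here, so reads of these overlaps cannot be told apart. AT2G42520 had 257 to 404 counts per shoot group and 399 to 898 per root group, where COR15B had 0 to 3. AT1G29380 had 16 to 33 counts per shoot group, where COR413IM2 had 457 to 928. In root AT1G29380 had 43 counts in water and up to 181 at PEG 2 h, beside 159 and 331 for COR413IM2.

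The 300 bases before the annotated gene start are shown for 4 genes whose upstream regions hold several of these elements and no part of another gene. Sequences were read from the RefSeq genome TAIR10.1 by locus code, each on its gene's strand, 5′ to 3′. The genome build that the authors counted on is not given in the sources used here. Capitals mark CCGAC and ACGTG on either strand (GTCGG and CACGT when read on the gene's strand). The intervals are chr5:21240417-21240716 (+ strand) for RD29A, chr5:21236721-21237020 (+ strand) for RD29B, chr2:17712331-17712630 (- strand) for COR15A and chr1:10289667-10289966 (- strand) for COR413IM1.
RD29A: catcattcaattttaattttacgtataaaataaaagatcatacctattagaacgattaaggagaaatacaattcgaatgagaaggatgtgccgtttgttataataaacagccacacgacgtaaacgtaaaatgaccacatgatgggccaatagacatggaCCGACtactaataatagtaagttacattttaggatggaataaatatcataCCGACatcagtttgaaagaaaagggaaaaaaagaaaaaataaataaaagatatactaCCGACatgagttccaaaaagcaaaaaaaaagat
RD29B: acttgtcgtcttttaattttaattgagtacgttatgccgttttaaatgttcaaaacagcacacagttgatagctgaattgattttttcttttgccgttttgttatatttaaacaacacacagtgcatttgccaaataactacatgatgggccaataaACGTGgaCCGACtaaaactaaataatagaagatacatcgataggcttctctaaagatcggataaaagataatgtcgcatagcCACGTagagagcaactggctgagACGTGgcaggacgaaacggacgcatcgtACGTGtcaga
COR15A: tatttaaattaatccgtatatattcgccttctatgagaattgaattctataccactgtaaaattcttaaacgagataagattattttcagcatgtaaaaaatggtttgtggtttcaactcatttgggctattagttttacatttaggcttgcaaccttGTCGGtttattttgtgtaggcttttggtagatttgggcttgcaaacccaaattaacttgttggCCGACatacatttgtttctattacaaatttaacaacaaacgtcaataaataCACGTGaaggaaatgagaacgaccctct
COR413IM1: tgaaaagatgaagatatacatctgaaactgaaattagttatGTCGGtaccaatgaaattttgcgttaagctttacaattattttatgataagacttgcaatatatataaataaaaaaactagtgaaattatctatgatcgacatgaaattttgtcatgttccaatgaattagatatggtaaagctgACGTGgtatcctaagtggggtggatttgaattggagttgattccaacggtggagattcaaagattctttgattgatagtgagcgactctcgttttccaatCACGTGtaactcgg

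The RD29A window holds 3 CCGAC cores, at 140, 90 and 33 bases before the start, and 0 ACGTG cores. The RD29B window holds 1 CCGAC core and 4 ACGTG cores. COR15A has 2 of each and COR413IM1 has 1 CCGAC and 3 ACGTG cores. In both, the palindrome CACGTG near the start counts as 2 overlapping ACGTG matches, 1 on each strand. The other windows are poorer: COR413PM1 has 1 CCGAC core, KIN1 and KIN2 have 1 ACGTG core each, and KIN1 has the only evening element core (AAATATCT, a motif of clock-regulated genes) among the 9. The windows of COR15B and COR413IM2 lie for 293 and 275 of their 300 bases inside the partner gene, so they are not comparable promoters. Among 27443 windows of the same length in the genome, 13.9% hold CCGAC, 1.84% hold at least 2, 25.6% hold ACGTG, 9.94% hold at least 2 matches, 4.34% hold both motifs and 5.64% hold AAATATCT. Matches of letters describe these windows and are not shown to be bound. Bases farther upstream or past the annotated start were not searched, so a count of 0 does not show that a promoter lacks the element.

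**Figure D1:**
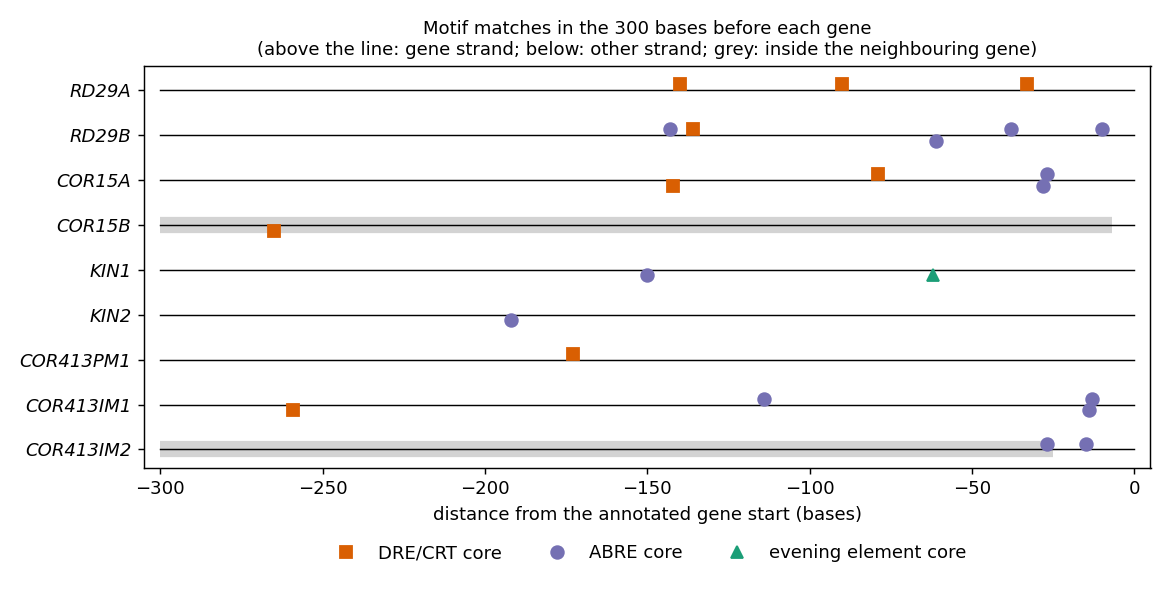
Matches of 3 motif cores in the 300 bases before each of the 9 genes, by distance from the annotated start in bases, with the gene strand above and the other strand below the line and grey where the window lies inside the neighbouring gene. RD29A carries 3 DRE/CRT cores and RD29B 4 ABRE cores and 1 DRE/CRT core.

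In shoots, nearly all of these genes rose within 1 h of PEG, and all 9 were above water at 3 h. At an edgeR adjusted p under 0.05, taken over all genes tested, 8 of 9 rose at 1 h, 7 of 9 at 2 h and 9 of 9 at 3 h, and 0 fell at any time. Among all 9207 genes tested in shoot, 7.2%, 7.3% and 10.4% rose and 5.16%, 3.41% and 6.7% fell at those times. In a fit of both tissues together, 5 of 9 were called at 1 h, 6 at 2 h and 8 at 3 h. The calls lost there were COR413IM2 (adjusted p = 0.0694), COR413IM1 (0.0859) and COR413PM1 (0.201) at 1 h, COR413IM1 at 2 h (0.0531) and COR413IM2 at 3 h (0.123). The median log2 change of the 9 was 1.65 at 1 h, 2.01 at 2 h and 3.28 at 3 h, beside -0.00, -0.00 and -0.02 for all genes tested. Together the 9 genes took 0.0661% ± 0.0098 (SD, n = 3) of all shoot counts in water and 0.822% ± 0.033 at PEG 3 h. In a bulk sample, fewer cells of a type and less RNA per cell cannot be told apart.

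RD29A, the DRE reporter, was among the higher counts. In shoot it stood at 110.2, 167 and 131 CPM in water libraries A, B and C, at 583, 665 and 849.8 CPM at PEG 1 h, at 1208, 1209 and 1329 CPM at 2 h and at 2396, 2578 and 2722 CPM at 3 h. Each time point lay above the one before without overlap, and the libraries of a time stayed close together. Of all shoot genes tested, 25.3%, 26% and 31.3% had no overlap with water in either direction at 1, 2 and 3 h. Between PEG times that share was 24.9% from 1 h to 2 h and 21.7% from 2 h to 3 h. The log2 change against water was 2.37 ± 0.18 (SE) at 1 h, 3.20 ± 0.19 at 2 h and 4.24 ± 0.20 at 3 h (edgeR adjusted p = 8.1e-08, 2.32e-09 and 4.42e-11). RD29A also rose from 2 h to 3 h by 1.04 on the log2 scale (adjusted p = 0.00483), a call that was lost in a fit of both tissues (1.05, adjusted p = 0.781).

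RD29B, the ABA reporter next door, was close to the limit of detection. Its counts were 3, 3 and 1 in water, 6, 8 and 3 at PEG 1 h, 11, 5 and 16 at 2 h and 9, 15 and 25 at 3 h. On the CPM scale the 3 h libraries (5.24 to 8.00) lay above water (0.317 to 1.77), while 1 h (1.11 to 1.99) and 2 h (1.62 to 5.02) overlapped it. The log2 change was 0.75 ± 0.71 at 1 h (adjusted p = 0.568), 1.43 ± 0.65 at 2 h (0.216) and 2.67 ± 0.60 at 3 h (0.0038). From the summed counts, 49 against 7, with library sizes scaled by TMM, as for CPM, the ratio at 3 h was 6.56. Its 95% counting interval of 2.95 to 17.2 covers counting error only.

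COR15A and COR15B rose the most of the 9. COR15A had 19.7, 27.1 and 30.8 CPM in water, 92.1, 112 and 219 CPM at PEG 1 h, 289, 330.0 and 307 CPM at 2 h and 1287, 1041 and 1013 CPM at 3 h. COR15B had 4.45, 5.30 and 4.44 CPM in water, 21.3, 34.4 and 61.6 CPM at 1 h, 115, 105 and 135 CPM at 2 h and 380.3, 324 and 311 CPM at 3 h. No library of one time overlapped the next in either gene, and replicate C stood high at 1 h in both. Of all shoot genes tested, 24.9% had no overlap between 1 h and 2 h in either direction. The log2 change of COR15A was 2.44 ± 0.28 at 1 h, 3.57 ± 0.29 at 2 h and 5.42 ± 0.30 at 3 h, and that of COR15B 3.04 ± 0.35, 4.65 ± 0.34 and 6.17 ± 0.34 (largest adjusted p = 1.59e-05). COR15B ranked 4th and COR15A ranked 9th from the top among the 9207 shoot genes by log2 change at 3 h.

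KIN1 had 30.8, 32.4 and 38.7 CPM in water and 647, 501 and 416 CPM at PEG 3 h, with 92.4, 93.8 and 136 CPM at 1 h and 175, 204 and 203 CPM at 2 h. Its log2 change went from 1.65 ± 0.20 at 1 h to 2.50 ± 0.20 at 2 h and 3.93 ± 0.21 at 3 h (adjusted p = 1.66e-05, 7.44e-08 and 2.45e-10), and the times did not overlap. KIN2 had 301, 331 and 510.1 CPM in water, 894, 1026 and 2144 CPM at 1 h, 1347, 1773 and 1501 CPM at 2 h and 4316, 3705 and 3092 CPM at 3 h. It differed from KIN1 in that 1 h and 2 h overlapped, since PEG 1 h replicate C was above all of the 2 h libraries. The log2 change of KIN2 was 1.83 ± 0.30 at 1 h, 2.01 ± 0.30 at 2 h and 3.28 ± 0.31 at 3 h (adjusted p = 0.000763, 0.00026 and 1.86e-06).

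The COR413 genes had the smallest changes of the 9 at 3 h. COR413PM1, the cell surface member, had few counts: 4.82, 1.18 and 1.90 CPM in water, 4.65, 6.11 and 11.1 CPM at PEG 1 h, 11.4, 10.08 and 10.7 CPM at 2 h and 15.1, 12.2 and 15.7 CPM at 3 h. The 2 h and 3 h libraries lay above water, and 1 h overlapped it in 1 library of each group. The log2 change was 1.35 ± 0.41 at 1 h (adjusted p = 0.0398), 1.95 ± 0.39 at 2 h (0.00194) and 2.36 ± 0.39 at 3 h (0.000239). The call at 1 h was lost without water replicate B (adjusted p = 0.118), water replicate C (0.137) or PEG 1 h replicate C (0.141).

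COR413IM1 had 10.4, 14.1 and 10.2 CPM in water, 17.9, 20.4 and 21.8 CPM at 1 h, 20.3, 21.2 and 25.4 CPM at 2 h and 36.4, 42.6 and 48.2 CPM at 3 h. Every PEG library was above every water library, and the 3 h libraries were above all others. Its log2 change was 0.82 ± 0.21 at 1 h (adjusted p = 0.0132, and 0.0753 without water replicate A), 0.97 ± 0.20 at 2 h (0.00322) and 1.93 ± 0.20 at 3 h (1.15e-06). Its partner COR413IM2 had 52.7, 66.6 and 64.1 CPM in water, 95.04, 70.2 and 114 CPM at 1 h, 72.5, 79.6 and 62.1 CPM at 2 h and 90.6, 97.2 and 83.4 CPM at 3 h. The 1 h and 3 h libraries lay just above water and the 2 h libraries overlapped it. The log2 change of COR413IM2 was 0.60 ± 0.18 at 1 h (adjusted p = 0.0323), 0.23 ± 0.18 at 2 h (0.572) and 0.57 ± 0.18 at 3 h (0.0362).

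These calls of COR413IM2 in shoot were not secure. At 1 h they were lost without water replicate A (adjusted p = 0.142), PEG 1 h replicate A (0.0762) or PEG 1 h replicate C (0.117), and with the replicate letter as a block (0.0613). At 3 h they were lost without water replicate A (0.158) or PEG 3 h replicate A (0.0752), B (0.137) or C (0.0558), and with the block (0.0647). The authors' deposited table did not mark COR413IM2 at any PEG time, and marked 5, 6 and 8 of the 9 genes at 1, 2 and 3 h. Those marks do not follow an adjusted p under 0.05 alone. COR413IM1 at 2 h had an adjusted p of 0.0345 and a log2 change of 0.92 there, and was not marked. In the authors' deposited table the shoot log2 change at 3 h was 6.19 for COR15B and 0.57 for COR413IM2.

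**Figure D2:**
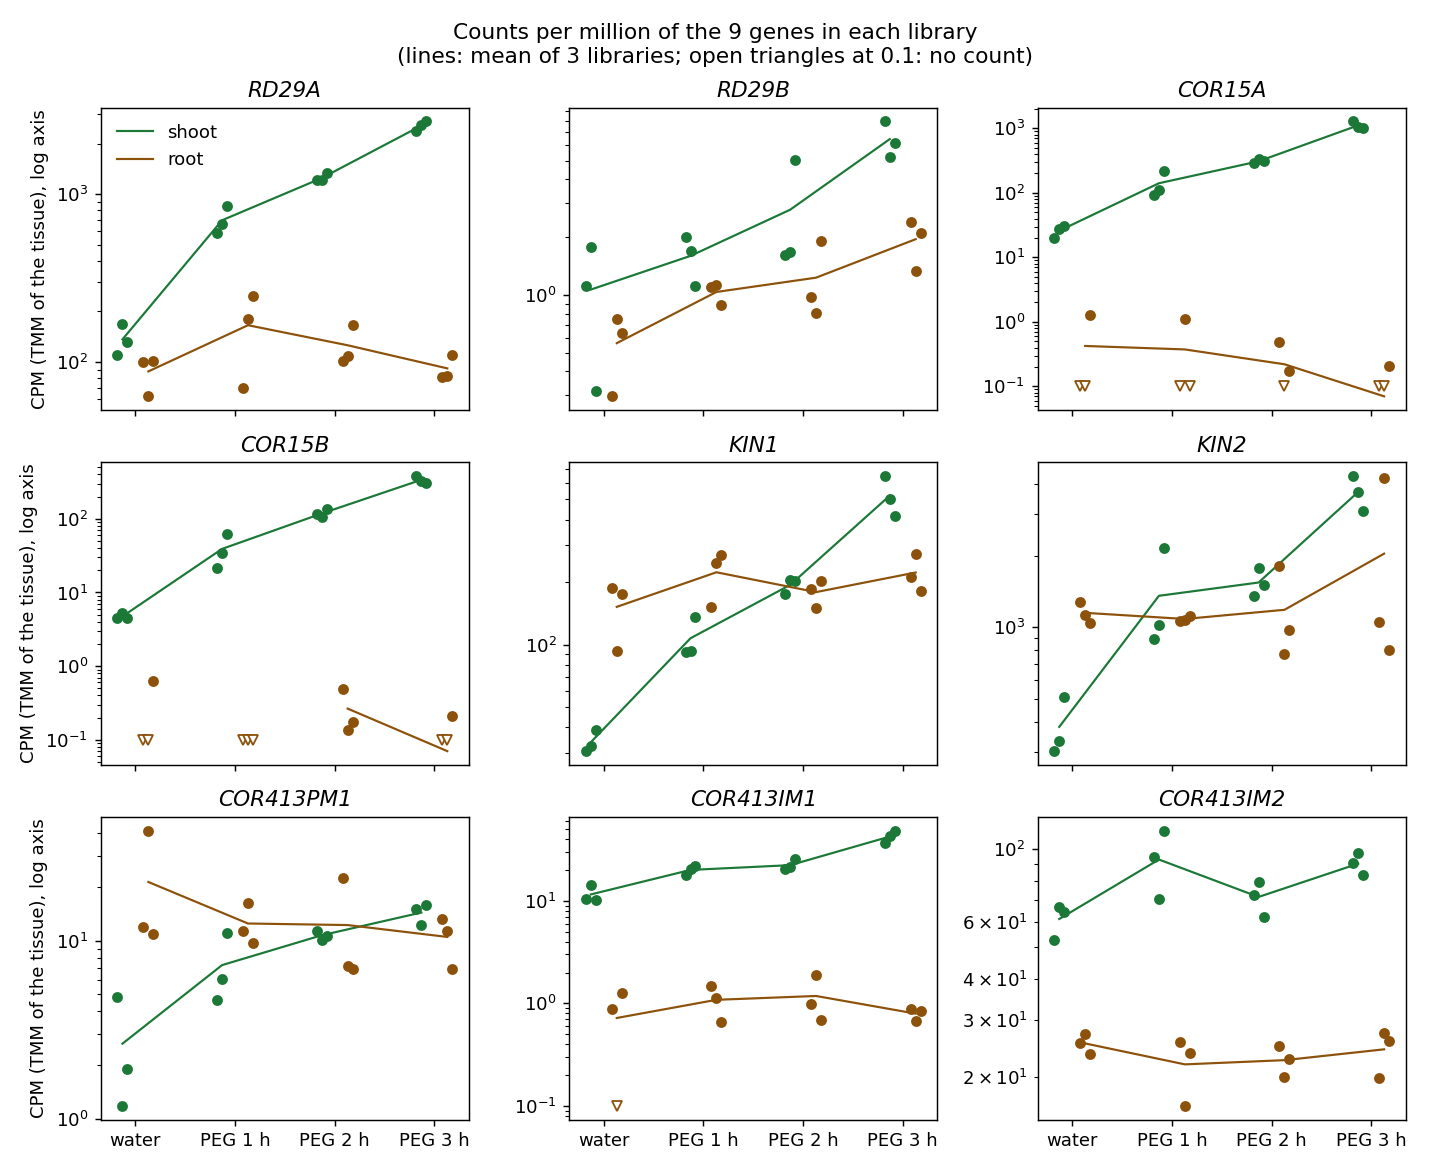
CPM of each of the 9 genes on a log axis in water and after 1, 2 and 3 h of PEG, with 1 point per library, green for shoot and brown for root, a line through the means of 3 libraries and open triangles at 0.1 for libraries without a count. The shoot libraries of COR15A climb from 19.7 to 30.8 CPM in water to between 1013 and 1287 CPM at 3 h, while its root libraries hold 0 to 2 counts each.

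The PEG times were also compared with each other in shoot. From 1 h to 2 h 4 of 9 genes rose (RD29A, COR15A, COR15B and KIN1), against 1.28% of all genes tested, and 0 fell, against 0.413%. From 2 h to 3 h 5 of 9 rose (RD29A, COR15A, COR15B, KIN1 and COR413IM1), against 0.391% of all genes (0.0326% fell). From 1 h to 3 h 7 of 9 rose, against 2.66% (1.96% fell), the exceptions being COR413PM1 (log2 change 1.01 ± 0.32, adjusted p = 0.0894) and COR413IM2 (-0.04 ± 0.17, adjusted p = 0.947). For all 9 genes every 3 h library lay above every 2 h library. Of the 9207 genes tested, 1029 were higher and 971 lower without overlap, together 21.7%. The largest step from 2 h to 3 h was that of COR15A, a log2 change of 1.85 ± 0.25 (adjusted p = 0.00107), which ranked 4th among 9207 genes. In the fit of both tissues the counts were 0 from 1 h to 2 h (adjusted p from 0.0505 for COR15B to 0.409 for RD29A), 3 from 2 h to 3 h and 4 from 1 h to 3 h. The calls lost there were RD29A (0.781) and COR413IM1 (0.594) from 2 h to 3 h, and COR413IM1 (0.0701), KIN2 (0.184) and RD29B (0.0809) from 1 h to 3 h. The authors' deposited table marked 1 of the 9 genes from 1 h to 2 h (COR15B), 4 from 2 h to 3 h and 5 from 1 h to 3 h. It did not mark RD29A from 2 h to 3 h (the authors' adjusted p = 0.121).

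Of the 4 genes called from 1 h to 2 h, COR15B (1.61, 0.00881) kept its call without any one library (highest adjusted p = 0.0263), and the other 3 did not. COR15A (log2 change 1.13, adjusted p = 0.0334) and KIN1 (0.85, 0.031) were lost without PEG 1 h replicate A or B or without any one PEG 2 h library (adjusted p from 0.0628 to 0.104 and from 0.053 to 0.108). RD29A (0.84, 0.0261) was lost without PEG 1 h replicate A or any one PEG 2 h library (0.0641 to 0.107), and KIN1 was lost with the replicate block (0.064). The log2 changes stayed positive without any one library, from 0.90 to 1.59 for COR15A, 0.76 to 1.05 for KIN1 and 0.72 to 0.997 for RD29A. COR413IM1 from 2 h to 3 h (0.96, 0.0181) was lost without PEG 2 h replicate A (0.154) or B (0.107) or PEG 3 h replicate B (0.0905) or C (0.14). RD29B from 1 h to 3 h (1.91, 0.0351) was lost without any one of the 6 libraries (0.0681 to 0.13) and with the block (0.0786), and COR413PM1 from 1 h to 3 h was gained without PEG 1 h replicate C (1.38, 0.0147). KIN2 from 2 h to 3 h (1.27 ± 0.29, adjusted p = 0.0858) was not called by edgeR and was called by DESeq2 (1.28, 0.00109).

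The shape over time differed among the genes. Of the mean CPM that it gained by 3 h, RD29A had 23.2% at 1 h and 45.8% at 2 h. COR15A had 10.6% and 26.0%, COR15B 10.3% and 33.9%, and KIN1 15.1% and 32.8%. KIN2 had 29.3% at 1 h and 34.9% at 2 h, and COR413PM1 had 39.6% and 68.8%. COR413IM2 stood as high at 1 h as at 3 h. These percentages are ratios of group means and were not tested.

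**Figure D3:**
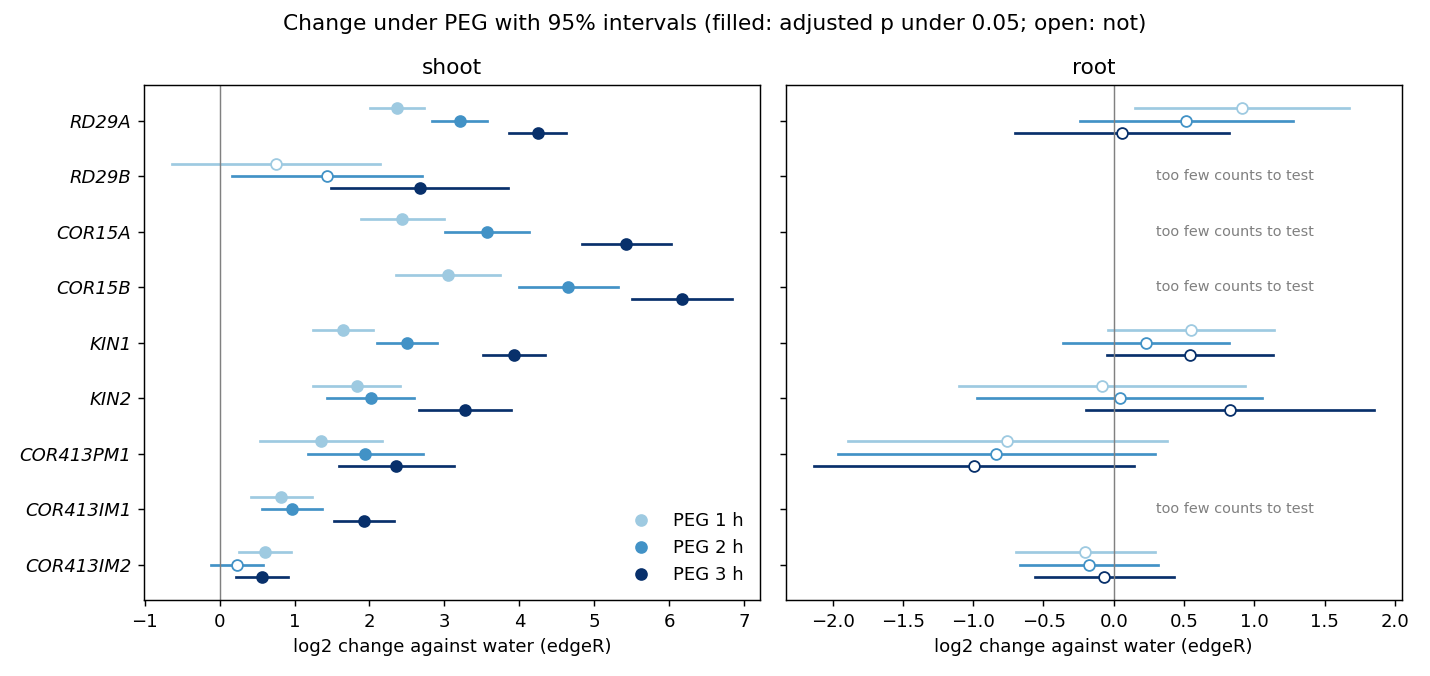
Log2 change against water (edgeR) with unadjusted 95% intervals for each gene at PEG 1, 2 and 3 h in shoot (left) and root (right, on its own scale), with filled points for an adjusted p under 0.05. In shoot the points of COR15B run from 3.04 to 6.17, while in root the 5 genes tested have open points at each time.

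The share of each partner in its tandem pair was followed in shoot, where 3 libraries against 3 cannot reach an exact two-sided p under 0.1. COR413IM1 took 16.5%, 17.5% and 13.7% of the pair's counts with COR413IM2 in water and 28.7%, 30.5% and 36.6% at PEG 3 h. The shares at 3 h were all above those in water, and the mean went from 15.9% ± 2.0 to 31.9% ± 4.2 (SD, n = 3; exact permutation test, two-sided p = 0.1). COR15A took 84.2% ± 3.0 of its pair in water, 72.3% ± 3.3 at 2 h and 76.6% ± 0.49 at 3 h (exact p = 0.1 for 3 h against water). KIN1 took 8.41% ± 1.19 of its pair in water and 12.3% ± 0.66 at 3 h (exact p = 0.1). RD29A took 99.2% ± 0.45 of its pair in water and 99.7% ± 0.069 at 3 h, with overlapping libraries (exact p = 0.2). These are shares of 3′ counts, which need not equal shares of transcripts, since capture may differ between partners. In root the KIN1 share was 11.6% ± 3.5 in water and 13.8% ± 6.7 at 3 h (exact p = 0.6). The COR413IM1 share there was 2.83% ± 2.61 and 3.26% ± 0.92 (exact p = 0.9). RD29A in root took 99.3% ± 0.45 of its pair in water and 97.9% ± 0.67 at 3 h. That fall had an exact p of 0.1, the smallest that can be reached, and rests on 3 and 23 RD29B counts.

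**Figure D4:**
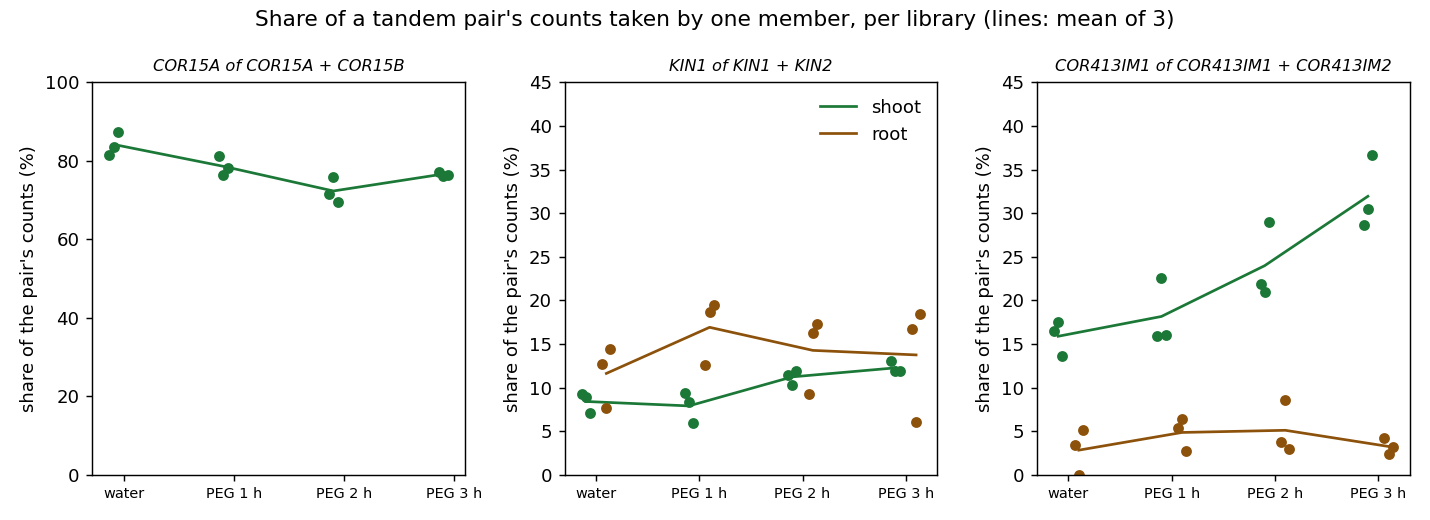
Percent of a tandem pair's counts taken by one partner in each library, for COR15A in shoot and for KIN1 and COR413IM1 in shoot (green) and root (brown), with lines through the mean of 3 libraries. The COR413IM1 share in shoot lies at 13.7% to 17.5% in water and at 28.7% to 36.6% after 3 h of PEG.

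In roots the same PEG times gave no call. Of the 9 genes, 5 had enough counts to test (RD29A, KIN1, KIN2, COR413PM1 and COR413IM2), and 0 of 5 were called by edgeR at 1, 2 or 3 h, against 0.461%, 0.226% and 0.226% of all 9751 root genes tested. At an unadjusted p under 0.05 the count was 1 (RD29A) at 1 h and 0 at 2 h and 3 h, DESeq2 called 0 at each time, and the authors' deposited table marked 0. Between PEG times 0 of 5 were called, as were 0 of all genes tested (0%). At an unadjusted p under 0.05 that count was 1 (RD29A) from 1 h to 3 h and 0 in the other steps, and DESeq2 called 0. The spread between root libraries was larger, with a biological coefficient of variation of 34.2% against 17.2% in shoot.

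RD29A in root had 100.3, 62.3 and 100.5 CPM in water, 69.6, 180.4 and 246 CPM at PEG 1 h, 102, 108 and 167 CPM at 2 h and 81.4, 82.7 and 110.2 CPM at 3 h. Replicates B and C at 1 h stood above water and replicate A did not, the 2 h libraries lay just above water, and 3 h overlapped it. The log2 change was 0.91 ± 0.39 at 1 h (adjusted p = 0.368), 0.52 ± 0.39 at 2 h (0.807) and 0.06 ± 0.39 at 3 h (0.972), with an unadjusted 95% interval of -0.70 to 0.82 at 3 h. KIN1 had 187, 93.8 and 176 CPM in water, 152, 247 and 270.3 CPM at 1 h, 185, 150 and 202 CPM at 2 h and 213, 273 and 182 CPM at 3 h. Water overlapped each PEG time, and the log2 change of KIN1 at 3 h was 0.54 ± 0.30 (interval -0.05 to 1.13, adjusted p = 0.699).

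KIN2 had the highest root counts of the 9, with 1282, 1127 and 1037 CPM in water and 1055, 4252 and 805 CPM at 3 h. A single library, PEG 3 h replicate B, set the 3 h mean: the log2 change was 0.83 ± 0.52 (adjusted p = 0.729) and -0.30 without it. COR413PM1 in root had 11.9, 41.3 and 10.8 CPM in water and 13.1, 11.3 and 6.95 CPM at 3 h, so water replicate B stood apart, and the log2 change of -0.995 ± 0.581 had an adjusted p of 0.715 and was -0.12 without that library. COR413IM2 in root lay between 16.3 and 27.3 CPM in all 12 libraries, and its log2 change at 3 h was -0.07 ± 0.25 (interval -0.56 to 0.43).

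The other 4 genes were too sparse in root for the test. COR15A had 7 counts and COR15B 5 counts over the 12 root libraries, and 7 libraries lacked a count for each. COR413IM1 had 43 counts in all, 5 in water and 9 at PEG 3 h. RD29B had 3 counts in water and 9, 19 and 23 at 1, 2 and 3 h of PEG, in groups of unequal depth. With library sizes scaled by TMM, as for CPM, the RD29B ratio of 3 h to water was 4.45, with a 95% counting interval of 1.34 to 23.1. The RD29B libraries of each PEG time (0.803 to 2.41 CPM) lay above the water libraries (0.297 to 0.750 CPM), which had 1 count each. Of all root genes tested, 23.1%, 13.7% and 14% had no overlap with water in either direction at 1, 2 and 3 h. In a fit with no filter on low counts, RD29B did not pass at 1 h (0.99 ± 0.82, adjusted p = 0.639), 2 h (1.30 ± 0.77, 0.788) or 3 h (1.98 ± 0.75, 0.599).

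The difference between tissues was tested directly as the root change minus the shoot change, in 1 fit of all 24 libraries with 10967 genes. RD29B, COR15A, COR15B and COR413IM1 are among the 9 counted here. They had too few root counts for the root fit and entered this fit through their shoot counts. At 1 h 0 of 9 genes differed by edgeR (6 at an unadjusted p under 0.05, 2 by DESeq2), where 1.09% of all genes were lower and 0.237% higher in root. At 2 h 2 of 9 were lower in root, against 0.957% of all genes (0.246% were higher): RD29A (-2.68 ± 0.46, adjusted p = 0.00164) and KIN1 (-2.26 ± 0.36, 0.000863). At 3 h 4 of 9 were lower, against 2.02%: RD29A (-4.20 ± 0.47, 3.79e-06), KIN1 (-3.39 ± 0.37, 3.79e-06), KIN2 (-2.46 ± 0.62, 0.0281) and COR413PM1 (-3.39 ± 0.76, 0.011). None was higher in root, where 0.574% of all genes were.

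Of the 4 differences at 3 h, those of RD29A and KIN1 held without any one library. KIN2 was lost without any one of 8 of the 12 libraries: shoot water A (0.101) or B (0.0869), shoot PEG 3 h A (0.078) or B (0.0626), root water A (0.0727) or B (0.0558), or root PEG 3 h A (0.0855) or C (0.0613). COR413PM1 was lost without root water replicate B, the library that stood apart (-2.50, 0.0514), or shoot water replicate C (-3.10, 0.0517). COR15A and COR15B had large fitted differences at 3 h (-6.85 ± 2.11, adjusted p = 0.096, and -6.75 ± 2.35, 0.172) that rest on 0 to 2 root counts per library. DESeq2 called both (0.000581 and 0.00185), but so few root counts give no usable measure of a change in root. At 1 h, RD29A (-1.50, 0.0988) and KIN1 (-1.15, 0.116) passed by DESeq2 (0.0227 and 0.05), RD29A also without root PEG 1 h replicate C (0.0228) and KIN1 without root water replicate B (0.0412). COR413PM1 at 2 h (-2.82, 0.0713) passed by DESeq2 (0.0364) and without root PEG 2 h replicate A (0.00916).

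Before any PEG, the 9 genes already divided by tissue. In water 5 were lower in root than in shoot (COR15A, COR15B, COR413IM1, COR413IM2 and RD29A), 3 were higher (COR413PM1, KIN1 and KIN2), and RD29B did not pass (-1.37 ± 0.84, adjusted p = 0.189). Of all genes, 53.3% differed between tissues, 26.2% lower and 27.1% higher in root. COR15A (-6.63 ± 0.67, 7.29e-09), COR15B (-5.01 ± 0.76, 7.23e-06) and COR413IM1 (-4.27 ± 0.45, 1.56e-08) had too few root counts for the root fit and entered the joint fit through their shoot counts. Having passed the filter through shoot alone, they could hardly be called higher in root, so these 3 calls are not independent of the filter. The size of these differences is also loose. Without any one library they ranged from -9.80 to -5.77 for COR15A, from -7.34 to -4.22 for COR15B, in both cases farthest without root water replicate C, and from -4.69 to -4.02 for COR413IM1. The other genes lower in root were COR413IM2 (-1.75 ± 0.23, 4.35e-07) and RD29A (-1.11 ± 0.33, 0.00577). COR15A had 2 root counts against 196 in shoot. With library sizes scaled by TMM within each tissue, its ratio of shoot to root was 81.5, with a counting interval of 22.3 to 678.0. COR15B had 1 root count against 35, a ratio of 29.1 on that scaling with an interval of 4.89 to 1183.

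COR413PM1 (2.43 ± 0.58, 0.00101, and 1.45 without root water replicate B), KIN1 (1.67 ± 0.27, 9.2e-06) and KIN2 (1.10 ± 0.44, 0.0386) were higher in root. For KIN2 the call was lost without shoot water replicate A (0.186) or B (0.157) or root water replicate A (0.141), B (0.105) or C (0.0755). On the scale of the joint fit, KIN1 in water had 80.9 to 156 CPM in root and 35.0 to 48.0 CPM in shoot, and at PEG 3 h 150 to 222 CPM in root and 519 to 696 CPM in shoot. So the order of the tissues for KIN1 turned over during PEG, with no overlap at either time. Between tissues in water, 59.3% of all genes tested had no overlap in either direction. Root was not tested against shoot at PEG 3 h, and the share of all genes was not computed there. The group means of KIN2 and COR413PM1 on the scale of the joint fit changed order too. KIN2 had 970 ± 104 CPM in root and 452 ± 157 CPM in shoot in water, and 1673 ± 1552 and 4301 ± 405 CPM at 3 h. COR413PM1 had 18.2 ± 15.1 CPM in root and 3.07 ± 2.15 CPM in shoot in water, and 8.70 ± 2.74 and 16.8 ± 2.59 CPM at 3 h. The share of the 9 genes in all root counts was 0.129% ± 0.032 in water and 0.215% ± 0.126 at PEG 3 h.

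Genes around the 9 were set beside them from 2 lists. Of 23 regulators of the DRE/CRT and ABRE routes, 15 were in the table and 13 were tested in shoot, where 7, 8 and 9 rose at 1, 2 and 3 h and 0 fell. Among all shoot genes tested, 7.2%, 7.3% and 10.4% rose and 5.16%, 3.41% and 6.7% fell at those times. CBF3, one of the CBF/DREB1 factors, had 5.19, 5.89 and 4.13 CPM in shoot water and 283, 180.4 and 108 CPM at PEG 3 h, a log2 change of 5.23 ± 0.40 (adjusted p = 2.16e-07). It was already at 102, 91.7 and 112 CPM at 1 h. ABF1, an AREB/ABF factor, went from 14.2 ± 1.4 CPM in water to 95.6 ± 5.9 CPM at 3 h (log2 change 2.76 ± 0.17, 1.13e-09). The median log2 change of the regulators was 1.11, 1.19 and 1.00 at the 3 times.

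Of 20 other targets of cold and dehydration, all in the table, 16 were tested in shoot. There 9, 12 and 13 rose at 1, 2 and 3 h, and 1 fell at 2 h, the ABA-responsive dehydrin gene RAB18 (-1.17 ± 0.34, adjusted p = 0.0399). Among all shoot genes tested, 7.2%, 7.3% and 10.4% rose at those times, and 3.41% fell at 2 h. The median log2 change of the targets was 1.10, 1.55 and 2.88. XERO2, a dehydrin gene also called LTI30, went from 35.1 ± 5.6 to 680.4 ± 23.8 CPM at 3 h (4.27 ± 0.20, 4.42e-11), and HVA22D, an ABA-induced gene, from 54.0 ± 13.1 to 667 ± 17 CPM (3.61 ± 0.19, 1.75e-10). Among all root genes tested, edgeR called 0.461%, 0.226% and 0.226% in either direction at 1, 2 and 3 h. In root 0 of 12 regulators were called at any time by edgeR (3, 1 and 2 at an unadjusted p under 0.05), while DESeq2 called 2 at 1 h (CBF3 and DREB2A), 1 at 2 h (CBF3) and 0 at 3 h. Of 15 other targets tested in root 1 rose at 1 h and 1 at 2 h, each time RD26, a NAC factor gene (2.58 ± 0.41, 0.0225, and 2.32 ± 0.41, 0.0397), and 0 at 3 h (2 at an unadjusted p under 0.05). DESeq2 called 2, 2 and 1 of these targets in root, RD26 at each time and ERD7 at 1 h and 2 h. DREB2A, RAB18, RD26 and ERD7 are named here after their values were seen.

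The closest relatives of the 9 had few counts. Of 5 listed relatives, 4 were in the table: COR413PM2, a CAP160-like gene related to RD29, and AT3G02480 and AT5G53820, which encode small proteins akin to KIN1. Only AT3G02480 could be tested. It had 8.16, 15.9 and 9.21 CPM in shoot water and 11.6, 12.9 and 13.3 CPM at PEG 3 h, a log2 change of 0.26 ± 0.28 (adjusted p = 0.596), beside a log2 change of 3.93 in KIN1. In root it had 4.45, 11.3 and 4.45 CPM in water and 24.9, 15.7 and 33.8 CPM at 1 h (1.97 ± 0.47, adjusted p = 0.105), with each 1 h library above each water library. Of all root genes tested at 1 h, 23.1% had no overlap with water in either direction. The root change minus the shoot change of AT3G02480 at 1 h was 2.18 ± 0.58 (adjusted p = 0.059), which missed the threshold.

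For each gene the 2 most alike genes outside the 9 were found by Pearson's r over the 8 group means of log2 CPM, among 7741 candidates that averaged 20 or more counts. Points share libraries and tissue, so r is a description. It also takes no account of the size of a change. In shoot, IDD14 went from 9.03 CPM in water to 25.2 CPM at 3 h, where COR15B went from 4.73 to 339 CPM. RD29A was most like AT4G36010 and NAC3 (both r = 0.992), and KIN1 most like XERO2 (r = 0.985). KIN2 was most like AT3G06410 (r = 0.988) and RAP2.1 (r = 0.968), RD29B most like AT5G11070 (r = 0.953) and DREB2C (r = 0.952), and COR413PM1 most like CEJ1 (r = 0.9485) and ZAT6 (r = 0.9483). COR15A was most like LEA3 (r = 0.997), COR15B most like IDD14 (r = 0.996), COR413IM1 most like AT1G78995 (r = 0.999) and COR413IM2 most like AOS (r = 0.998). Among the 9 themselves, COR15A and COR15B were each other's closest (r = 0.991), as were KIN1 and KIN2 (r = 0.928), while RD29A was closest to COR15B (r = 0.980) and RD29B to RD29A (r = 0.892).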

How the data were processed

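Raw counts of each gene in each library, as the authors deposited them, were used for all tests. Per the submitters' processing notes the tools were bcl2fastq, cutadapt, STAR 2.4.2a, HTSeq and DESeq2. The sources used here do not give build, strand or the use of molecular identifiers. The deposited log2 fold changes and adjusted p-values of the authors are quoted as theirs. A further 48 per-sample columns were not used. Groups follow the source names, since a tissue field reads root for all samples and titles code water as 0 h.

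Counts were filtered with filterByExpr, scaled by TMM and tested with the quasi-likelihood test of edgeR 4.0.16 (R 4.3.3, limma 3.58.1), two-sided, with Benjamini-Hochberg adjustment over all genes of a contrast and calls under 0.05. PEG was tested in a fit of 12 libraries per tissue, tissue contrasts in a fit of 24. A gene's CPM comes from its tissue's fit unless stated. Intervals are 95%, unadjusted, and errors are SE for log2 changes and SD for levels. DESeq2 1.42.0, other scalings, no filter, a replicate block and leaving out each library were alternatives. Steps were tested on simulated data. Sequences and motifs were read with Python 3.11.15 and biopython 1.88. The named genes are the 9 by locus, 5 relatives, for each list the 2 risers and 2 fallers per tissue with the smallest adjusted p at PEG 3 h, and 2 most alike genes per member. Members and lists were chosen with earlier results of these data known. The labels call the replicates biological. A root marker of the planned list is not reported here.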

Additional observations from a re-analysis of the deposited data

Results flagged for a closer look

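Of the tissue differences described above, 6 passed the test of the root change minus the shoot change (edgeR, fit of both tissues), each lower in root. At 2 h they were RD29A (-2.68, adjusted p = 0.00164) and KIN1 (-2.26, 0.000863). At 3 h they were RD29A (-4.20, 3.79e-06), KIN1 (-3.39, 3.79e-06), KIN2 (-2.46, 0.0281) and COR413PM1 (-3.39, 0.011). For COR413PM1, root water replicate B stood at 41.3 CPM beside 11.9 and 10.8 CPM, and for KIN2, root PEG 3 h replicate B stood at 4252 CPM beside 1055 and 805 CPM. Without the first library COR413PM1 was no longer called (-2.50, adjusted p = 0.0514), and without the second KIN2 was called with a larger difference (-3.54, 8.65e-05).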

How the results depend on the processing

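The alternatives were DESeq2 size factors, library totals, no filter on low counts, the replicate block, DESeq2, 1 fit of both tissues, and leaving out each library. In the fit of both tissues the 9 genes gave 5 calls in shoot at 1 h (8 in the reported fit), 0 from 1 h to 2 h (4), 3 from 2 h to 3 h (5) and 4 from 1 h to 3 h (7), the cause not tested. DESeq2 called 2 tissue differences at 1 h (0 by edgeR). With 1 library left out, shoot calls ranged from 6 to 8 at 1 h, 7 to 7 at 2 h and 8 to 9 at 3 h, and from 1 to 4, 4 to 5 and 6 to 7 for the steps from 1 h to 2 h, 2 h to 3 h and 1 h to 3 h. Calls of tissue differences ranged from 0 to 1 at 1 h, 2 to 3 at 2 h and 2 to 4 at 3 h, those in water from 7 to 8, and those in root stayed at 0.

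Signs turned only for log2 changes that were not called in either fit (51 cases over all values computed, lowest adjusted p in the alternative fits = 0.731). With library totals these were COR413IM2 in shoot from 1 h to 3 h (0.0294) and, in root, COR413IM2 at 1 h (0.12), 2 h (0.0329) and 3 h (0.13) and KIN2 at 1 h (0.23). That scaling moved the median of all root genes by 0.41, 0.26 and 0.29 at 1, 2 and 3 h. With 1 library left out, shoot KIN2 from 1 h to 2 h ranged from -0.0427 to 0.68, RD29B from -0.00261 to 1.02, and COR413IM2 from 1 h to 3 h from -0.21 to 0.14. In root, COR413PM1 ranged from -1.08 to 0.13 at 1 h and from -1.54 to 0.0319 at 2 h. At 2 h KIN1 ranged from -0.0121 to 0.41 and KIN2 from -0.39 to 0.27. At 3 h COR413IM2 ranged from -0.15 to 0.0589, KIN2 from -0.30 to 1.21 and RD29A from -0.13 to 0.17.

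Same-letter libraries did not deviate together in every group pair (correlations from -0.502 to 0.64 within a tissue), and the labels tie no letter to a shared batch, so the letters were not used as pairs, although the C libraries of root correlated positively in all 6 group pairs (0.0511 to 0.64). The replicate block lost 4 calls: COR413IM2 at 1 h (0.0613) and 3 h (0.0647), KIN1 from 1 h to 2 h (0.064) and RD29B from 1 h to 3 h (0.0786). It moved no count of the 9 genes by over 1.5 times. Library totals lost COR413PM1 at 1 h (0.0565), COR413IM1 from 2 h to 3 h (0.0887) and RD29A between tissues in water (0.103). KIN2 between tissues in water was lost with DESeq2 size factors (0.0535) and with no filter (0.064). RD29B in both tissues and COR15A, COR15B and COR413IM1 in root had few counts, which limits the precision of their values.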
